A study of Mus musculus with 6 samples.

Results

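The 9 genes described here are regulators and markers of endoderm: Sox17, Sox7, Foxa1, Foxa2, Gata4, Gata6, Hnf4a, Cxcr4 and Afp. They were named by symbol, out of 21887 protein-coding genes of the mouse annotation, and every listed region from 20 kb before to 20 kb after each of them was taken. The regions come from chromatin immunoprecipitation sequencing (ChIP-seq) of mouse embryonic stem cells, with 1 WDR5 library and 1 H3K4me3 library from each of a pair of lines. Both lines carry a GFP knock-in at Rx, a gene of the eye field, lack endogenous Wdr5 and p53, and were grown in 2i+LIF medium, which holds stem cells in a naive state. One line had been rescued with wild-type WDR5 (WT rescue, here the WT line) and the other with WDR5 bearing S91K and Y191F (mutant rescue, here the mutant line). The labels do not say whether a line was 1 clone, nor how the rescue protein was driven. Each antibody was used once per line, so differences between the lines are given without replication and without a test.

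Endoderm forms the lining of the gut and its organs, such as the liver and pancreas, and a separate primitive endoderm forms the yolk sac. Nodal signalling turns on SOX17, the FOXA factors and the GATA factors, which in turn switch on later genes such as Hnf4a and Afp. Embryonic stem cells hardly express these genes, yet many promoters of developmental regulators in such cells carry trimethylated lysine 4 of histone H3 (H3K4me3) together with a repressive mark, a state called bivalent. WDR5 is a scaffold subunit of the enzyme complexes that write H3K4me3. The repressive mark and RNA were not measured in these libraries, so a region shows where the mark was listed and not whether a gene was expressed. In such bulk samples, fewer cells carrying a mark and less mark per cell cannot be told apart.

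A promoter was the window from 1 kb before to 1 kb after an annotated transcription start. Starts were at hand for 5 members (Foxa1, Foxa2, Cxcr4, Hnf4a and Afp), and for Sox17, Gata4, Gata6 and Sox7 either end of the gene was used instead. By that rule 6 of 9 members had a promoter H3K4me3 region in each line, beside 67.3% of all protein-coding genes with one in both. They were the same 6 genes: Sox17, Foxa1, Foxa2, Gata6, Sox7 and Cxcr4. Over all protein-coding genes the shares were 68.8% in the WT line and 68% in the mutant line, near the 66.7% of the members, so presence alone did not set them apart. No member was marked at the promoter in 1 line alone, beside 1.51% of all genes for the WT line and 0.722% for the mutant line. For Sox17 this rests on the lower end of the gene, because the only region at its upper end was in the WT line's list. Its strand was not at hand, and if its start is the upper end, Sox17 was marked there in the WT line alone. Gata4, Hnf4a and Afp had none at the window. For Gata4 only the gene ends were searched, so a start inside the gene would have been missed. Gata4 and Hnf4a held H3K4me3 regions inside the gene in both lines, and Afp held a single one, in the WT line's list alone. Within 20 kb of the gene all 9 members had an H3K4me3 region in the WT line, beside 86.5% of all genes, and 8 in the mutant line, beside 86.1%. These windows held 25 and 29 H3K4me3 regions and 6 and 9 WDR5 regions, the WT line first.

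**Figure D1:**
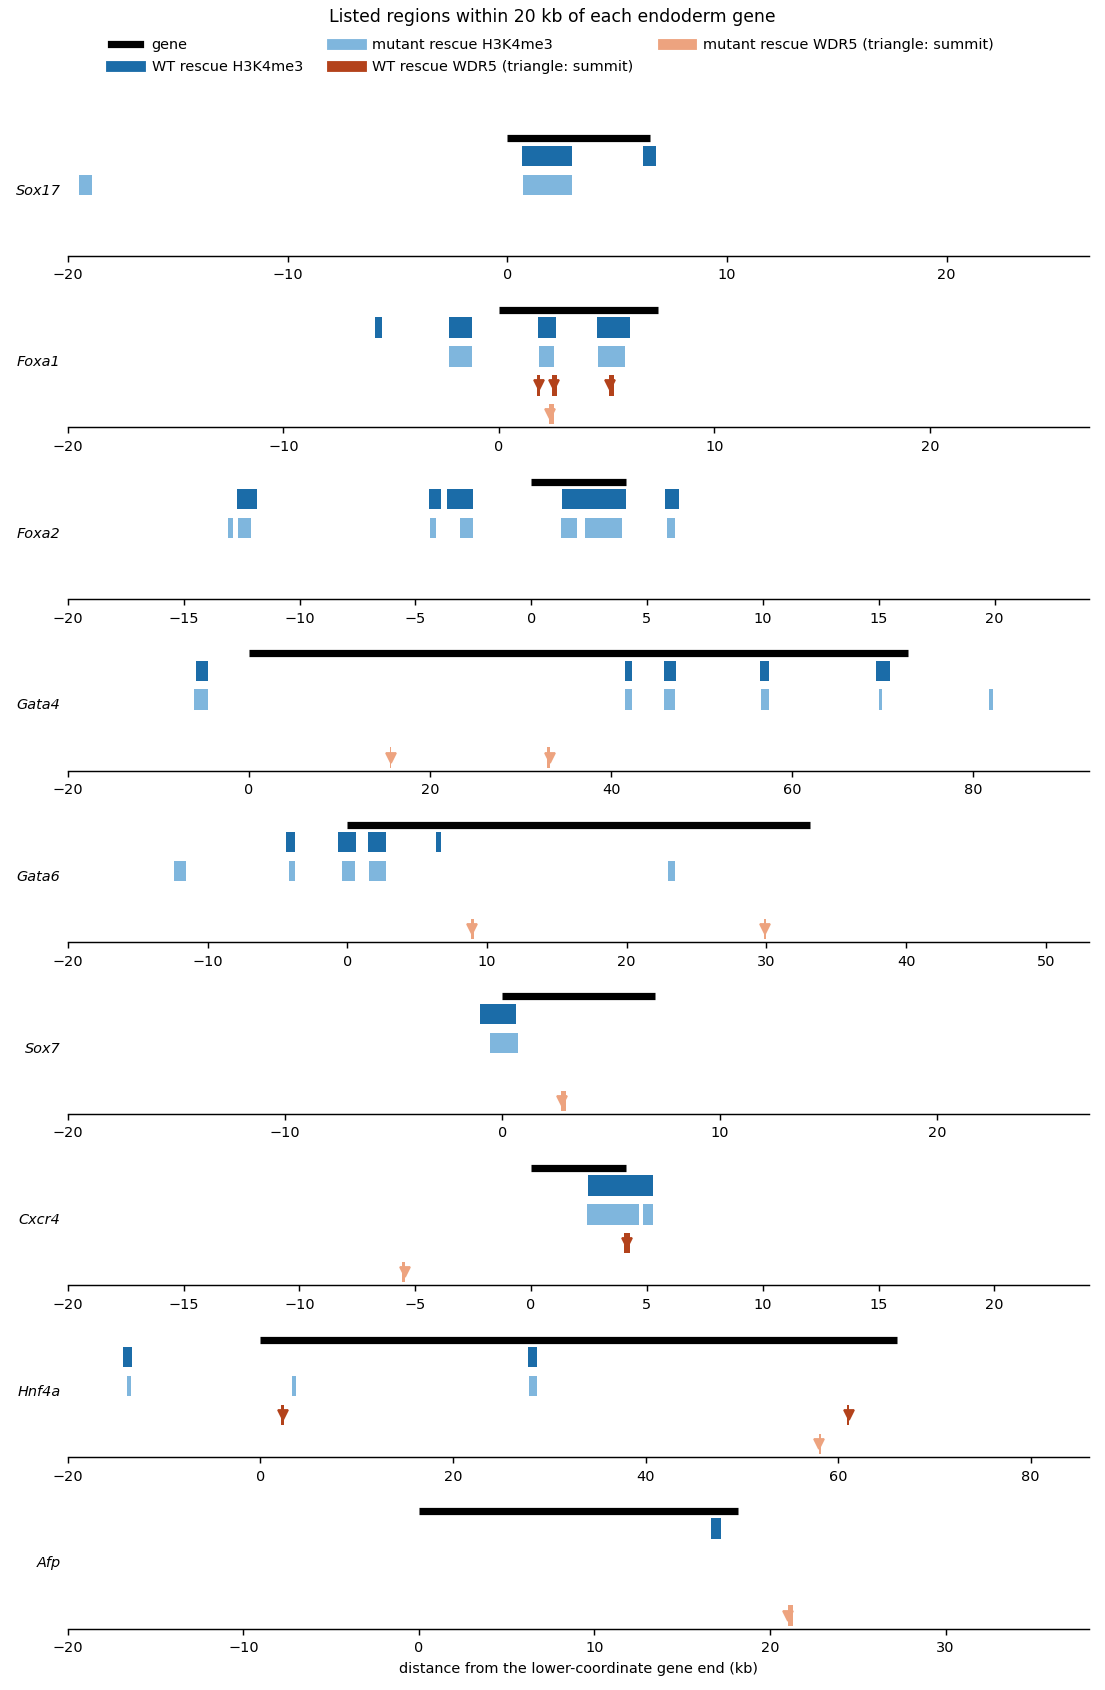
Regions in the 4 lists within 20 kb of each gene, drawn to scale along the distance from the gene's lower-coordinate end in kb, with the gene as a black bar and a triangle at the summit of each WDR5 region. H3K4me3 regions lie over Sox17, Foxa1, Foxa2, Gata4, Gata6, Sox7, Cxcr4 and Hnf4a in both lines, and over Afp in the WT rescue alone. WDR5 regions are few and rarely lie at the same place in the 2 lines.

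The 200 bases before the start are shown for the 5 members with an annotated start (the outermost start of Foxa2 and the first of Hnf4a), on GRCm38.p6 (the build that mm10 names), from RefSeq. They are shown because H3K4me3 covered all of them at Foxa1 and Cxcr4 in both lines and none of them at Foxa2, Hnf4a and Afp in either, although the other 2 starts of Foxa2 lay within H3K4me3. They are written 5′ to 3′ on the strand of the gene, and capitals mark each CG dinucleotide and each TATAAA. Foxa1 is at chr12:57546112-57546311, minus strand; Cxcr4 at chr1:128592300-128592499, minus strand; Foxa2 at chr2:148046970-148047169, minus strand; Hnf4a at chr2:163506657-163506856, plus strand; Afp at chr5:90490514-90490713, plus strand.
Foxa1: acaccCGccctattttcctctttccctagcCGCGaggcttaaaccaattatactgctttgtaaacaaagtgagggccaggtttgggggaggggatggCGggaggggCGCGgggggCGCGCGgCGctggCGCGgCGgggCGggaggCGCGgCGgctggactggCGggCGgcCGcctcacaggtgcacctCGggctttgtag
Cxcr4: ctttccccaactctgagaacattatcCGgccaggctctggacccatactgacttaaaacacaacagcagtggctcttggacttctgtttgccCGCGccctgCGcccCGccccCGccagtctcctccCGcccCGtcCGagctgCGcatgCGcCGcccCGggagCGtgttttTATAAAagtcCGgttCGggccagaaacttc
Foxa2: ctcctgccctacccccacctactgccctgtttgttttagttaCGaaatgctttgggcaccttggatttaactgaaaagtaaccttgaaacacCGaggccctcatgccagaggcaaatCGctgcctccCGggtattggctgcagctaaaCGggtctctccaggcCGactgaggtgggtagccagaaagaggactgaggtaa
Hnf4a: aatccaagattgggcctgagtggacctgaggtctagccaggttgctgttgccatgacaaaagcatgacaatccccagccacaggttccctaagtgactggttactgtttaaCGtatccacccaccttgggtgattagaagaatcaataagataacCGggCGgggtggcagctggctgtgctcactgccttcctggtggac
Afp: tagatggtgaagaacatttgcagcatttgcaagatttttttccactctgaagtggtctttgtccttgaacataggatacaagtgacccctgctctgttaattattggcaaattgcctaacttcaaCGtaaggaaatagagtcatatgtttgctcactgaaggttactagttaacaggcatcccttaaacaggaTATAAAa

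The stretches hold 21 CG dinucleotides at Foxa1, 16 at Cxcr4, 6 at Foxa2, 3 at Hnf4a and 1 at Afp, so the uncovered Foxa2 stretch lay between the covered and the other uncovered ones. In the whole promoter window of 300 bases (250 before the start and 50 after it), the CpG content as observed over expected was 0.929 at Foxa1, 0.767 at Cxcr4 and 0.548, 0.680 and 0.767 at the 3 starts of Foxa2. It was 0.183 and 0.163 at the 2 starts of Hnf4a and 0.250 at Afp. The median was 0.746 over the 14443 protein-coding windows with an H3K4me3 region within 1 kb in the WT line's list and 0.163 over the 6820 without one. The quartiles were 0.541 and 0.900 with the mark and 0.0821 and 0.267 without it. The windows of Cxcr4 and Foxa2 lay between the former and Foxa1 above them, and the windows of Hnf4a and Afp lay between the latter. CpG-rich promoters are known to carry H3K4me3 in stem cells largely regardless of expression.

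**Figure D2:**
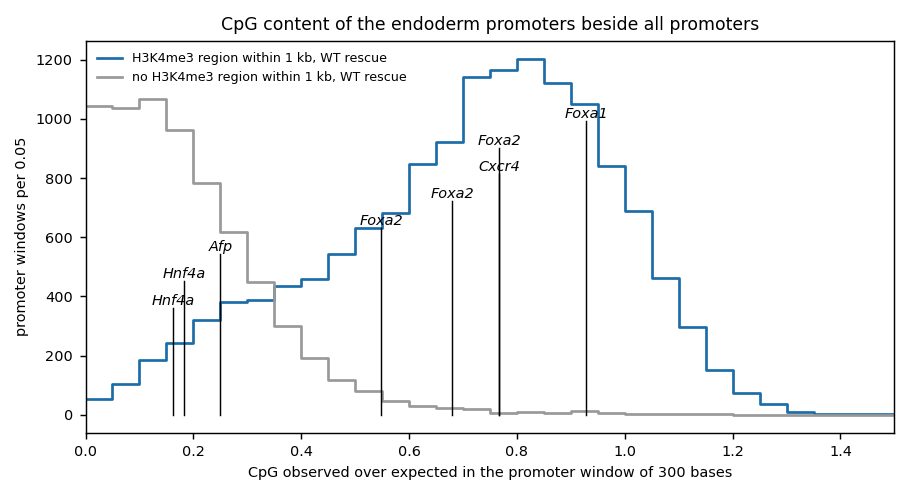
CpG content (observed over expected, x axis) of all protein-coding promoter windows of 300 bases, as the number of windows per 0.05 with (blue) or without (grey) an H3K4me3 region within 1 kb in the WT rescue list, and vertical lines for the windows of 5 endoderm genes. Hnf4a at 0.163 and 0.183 and Afp at 0.250 lie under the grey curve, and the windows from Foxa2 at 0.548 to Foxa1 at 0.929 under the blue one.

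Letters found in sites of GATA, SOX, FOXA and HNF4 factors were searched on both strands of the 8 windows of the 5 genes. TATAAA and CACGTG (an E-box), which are not letters of such sites, were searched as well. TGTTTAC, a core of FOXA sites, was found at Foxa1 alone, from position −141 to −135 relative to its start on the reverse strand, and in 3.01% of all windows. It overlaps a copy of ACAAAG, a core of SOX sites, on each side. ACAAAG was present at Foxa1, Foxa2 and Afp and in 16.8% of windows, while AGATAA, found in sites of the GATA factors, was present at Foxa2 and Hnf4a and in 9.65%. TATAAA was present at Afp, Cxcr4 and Foxa2 and in 12.6%. TGTTTGC was present at Afp and Cxcr4 and in 4.58%. TGATAA (7.60% of windows), ACAATG (11.0%), CAAAGTCCA (0.451%) and CACGTG (7.84%) were in no window of the members. Such matches describe the letters only.

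Foxa1 and Foxa2 encode pioneer factors, which open compacted chromatin in front of other endoderm regulators. The Foxa1 promoter region ran on chromosome 12 from 57545166 to 57546713 (1548 bp) in the WT line and from 57545207 to 57546486 (1280 bp) in the mutant line. The WT line region reached into Ttc6, a gene that overlaps the upper end of Foxa1, while the mutant line region ended before it. Inside the gene another region spanned 828 bp and 710 bp, and one below the gene from 57538305 spanned 1060 bp and 1057 bp. A further one of 312 bp, from 57534881, was in the WT line's list alone. The authors' fold enrichment of the promoter region, a value that ranks regions within 1 list only, was above 70.2% of the WT line's list and above 75.7% of the mutant line's list. The Foxa1 regions thus lay at nearly the same places in both lines, with 3 of 4 shared.

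Foxa1 was also the member with the most WDR5. The WT line's list held 3 WDR5 regions there, all inside the gene and all on H3K4me3. The strongest, from 57543110 to 57543329 (220 bp, fold 3.95), had a −log10 q of 2.72 and a fold above 95.3% of that list. The others had a −log10 q of 0.790 for the region from 57545752 to 57545954, whose summit lay 306 bp from the start, and of 0 for the region from 57542391 to 57542541. The mutant line's list held a single WDR5 region, from 57542948 to 57543199 (fold 2.25, −log10 q 0), which overlapped the strongest of the WT line and also lay on H3K4me3. No other WDR5 region near the 9 genes was overlapped between the lines.

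Of the 6 members with a promoter region, Foxa2 showed the largest difference in promoter width. Its WT line region on chromosome 2 ran from 148044213 to 148046950, 2738 bp, wider than 97.2% of all promoter regions of that list. In the mutant line the same stretch was listed as regions of 688 bp and 1564 bp with a gap of 373 bp between them, so the widest region was 0.571 times the WT line one. When regions with gaps of at most 500 bp were joined, the widths were 2738 and 2625 bp, and the difference fell below 1.5-fold. Both regions ended short of the outermost of the 3 annotated starts, 148046969, and covered the start at 148045948. Nearby, a region from 148048648 spanned 592 bp in the WT line and 373 bp from 148048724 in the mutant line. Below the gene, regions inside the long non-coding RNA gene 9030622O22Rik spanned 842, 494 and 1127 bp in the WT line and 211, 565, 292 and 569 bp in the mutant line. No WDR5 region lay within 20 kb of Foxa2 in either line.

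Sox17 and Sox7 encode related factors of endoderm that also act in blood vessels. The main Sox17 region was nearly identical between the lines, on chromosome 1 from 4491621 to 4493863 (2243 bp) in the WT line and from 4491624 to 4493888 (2265 bp) in the mutant line. It lay inside the gene, beginning 693 bp above the lower end in the WT line, and the summits lay 1109 bp apart. A smaller region of 603 bp, from 4497087 to 4497689, lay over the upper end of Sox17 and was listed for the WT line only (−log10 q 7.98). The mutant line had instead a region of 566 bp below the gene, 18912 bp from it (−log10 q 2.65). No WDR5 region lay within 20 kb of Sox17.

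Sox7 had 1 H3K4me3 region in each line, over the lower end of the gene on chromosome 14. It ran from 63942669 to 63944353 (1685 bp) in the WT line and from 63943120 to 63944409 (1290 bp) in the mutant line. The difference was at the outer edge, which began 451 bp further in, while the inner edges were 56 bp apart. A WDR5 region of 228 bp (fold 2.26, −log10 q 0) lay inside Sox7 in the mutant line alone, away from H3K4me3.

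Gata4 and Gata6 encode zinc-finger factors; GATA6 is needed for primitive endoderm, and both act in heart and gut. Gata6, on chromosome 18, had a region over its lower end from 11051841 to 11053172 (1332 bp) in the WT line and from 11052150 to 11053081 (932 bp) in the mutant line. That end overlaps the antisense transcript gene Gata6os, so the region could belong to either. The adjacent region inside Gata6 went the other way by a small margin, with 1228 bp from 11054030 in the WT line and 1280 bp from 11054033 in the mutant line. Below the gene, within Gata6os, a region spanned 668 and 422 bp. Among the smaller regions, 349 bp from 11058890 was in the WT line alone, and 865 bp from 11040120 and 499 bp from 11075453 were in the mutant line alone.

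Gata4, on chromosome 14 from 63198914 to 63271712, had no H3K4me3 region within 1 kb of either end, but 4 inside the gene in each line. The strongest ran from 63255379 to 63256314 (936 bp, fold 15.7) in the WT line and from 63255408 to 63256373 (966 bp, fold 14.8) in the mutant line, and its fold was above 95.9% and 96.5% of the respective list. The regions from 63244710 (1325 bp) and 63240415 (778 bp) in the WT line had counterparts of 1238 and 795 bp. The region nearest the upper end differed most, with 1562 bp from 63268164 in the WT line and 413 bp from 63268452 in the mutant line. A region below the gene from 63193046 covers the end of Neil2, a DNA repair gene, and spanned 1303 and 1488 bp. A further region of 410 bp above the gene, from 63280663, was in the mutant line alone. The mutant line's list also held a pair of WDR5 regions in Gata4, of 151 and 303 bp, and a pair in Gata6, of 162 and 151 bp. These 4 had a −log10 q of at most 0.0171, lay on no H3K4me3 region and had no WT line counterpart.

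Cxcr4 encodes the receptor for the chemokine CXCL12 and is used as a surface marker of definitive endoderm. Its H3K4me3 region on chromosome 1 ran from 128590657 to 128593473 in the WT line, and its 2817 bp were wider than 97.8% of promoter regions. In the mutant line it was listed as 2218 bp and 435 bp with a gap of 202 bp, and the joined widths were 2817 and 2855 bp. A WDR5 region from 128592204 to 128592477 (274 bp, fold 2.58, −log10 q 0) lay over the start in the WT line alone. Its summit was 44 bp from the start, and it covered 178 of the 200 bases printed above. The mutant line's list had a WDR5 region of 151 bp 5439 bp below the gene and none at the start.

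Hnf4a encodes a nuclear receptor of liver, gut and pancreas with a pair of known promoters, and Afp encodes alpha-fetoprotein, the main serum protein of yolk sac and fetal liver. Neither annotated start of Hnf4a, 163506857 and 163547155 on chromosome 2, had H3K4me3 within 1 kb. Between them both lines had a region from 163534616 to 163535541 (926 bp, fold 13.3) and from 163534679 to 163535533 (855 bp, fold 6.41), where the antisense gene Hnf4aos also lies. A region inside the neighbouring gene R3hdml spanned 966 and 372 bp, and 449 bp from 163510055 was in the mutant line alone (−log10 q 1.57). Hnf4a held WDR5 regions of 256 and 199 bp (−log10 q 0 for both) in the WT line and 205 bp (−log10 q 0.608) in the mutant line, at separate places and away from H3K4me3. At Afp the single H3K4me3 region, 539 bp from 90507375 on chromosome 5 (−log10 q 10.2), lay 16661 bp above the start, near the far end of the gene. A WDR5 region of 250 bp (fold 1.93, −log10 q 0) lay 2848 bp above the gene in the mutant line.

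Among the 6 members with a promoter region in both lines, the mutant line region was the narrower at 5. The exception was Sox17, measured at its lower end, which may not be its start. Over the 14727 protein-coding genes with a region in both lines, the mutant line region was narrower at 73.8%. The median promoter width of these members was 1964 bp in the WT line and 1427 bp in the mutant line, beside 1517 and 1457 bp over all genes with a promoter region. With gaps of at most 500 bp joined, the member medians were 1964 bp in the WT line and 1777.5 bp in the mutant line. The log2 ratio of mutant line to WT line width was 0.01 at Sox17, −0.27 at Foxa1, −0.34 at Cxcr4, −0.39 at Sox7, −0.52 at Gata6 and −0.81 at Foxa2. Its median was −0.37 over the 6 members and −0.07 over all 14727 genes. Foxa2 alone was narrower by over 1.5-fold in the mutant line, as were 3.54% of all genes, and no member was wider by that much, against 1.49%. With gaps of at most 500 bp joined the median log2 ratios were −0.17 and −0.07, and no member passed 1.5-fold. Cxcr4 was then wider in the mutant line by 0.02. Sox17, Sox7, Foxa1 and Gata6 kept their values under joining. With a promoter window of 2.5 kb in place of 1 kb, the Gata6 ratio went from −0.52 to −0.06, since the adjacent region inside the gene was then the widest in the mutant line.

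**Figure D3:**
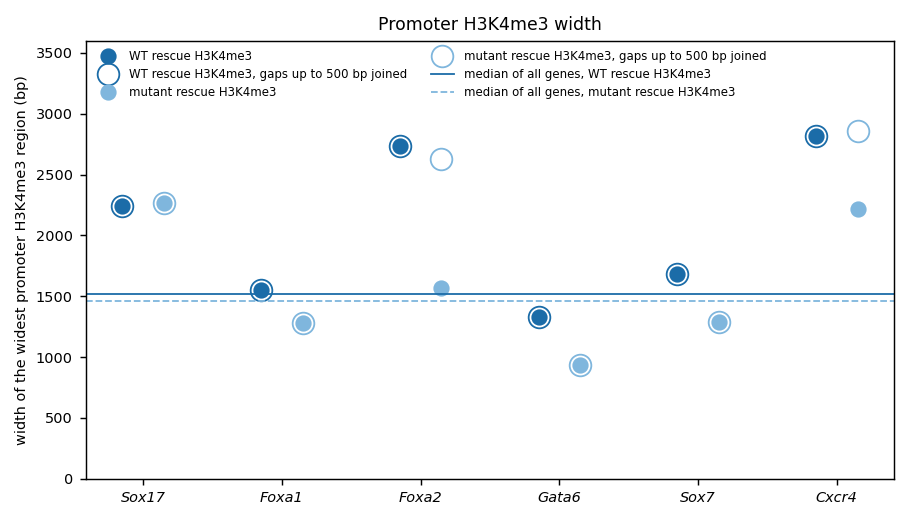
Width in bp of the widest promoter H3K4me3 region of the 6 members with one in both lines (filled circles, dark for the WT rescue and light for the mutant rescue, 1 library each), the width after joining gaps of at most 500 bp (open circles), and the median of all protein-coding genes with a region (lines at 1517 and 1457 bp). Joining moves the mutant rescue values of Foxa2 from 1564 to 2625 bp and of Cxcr4 from 2218 to 2855 bp.

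**Figure D4:**
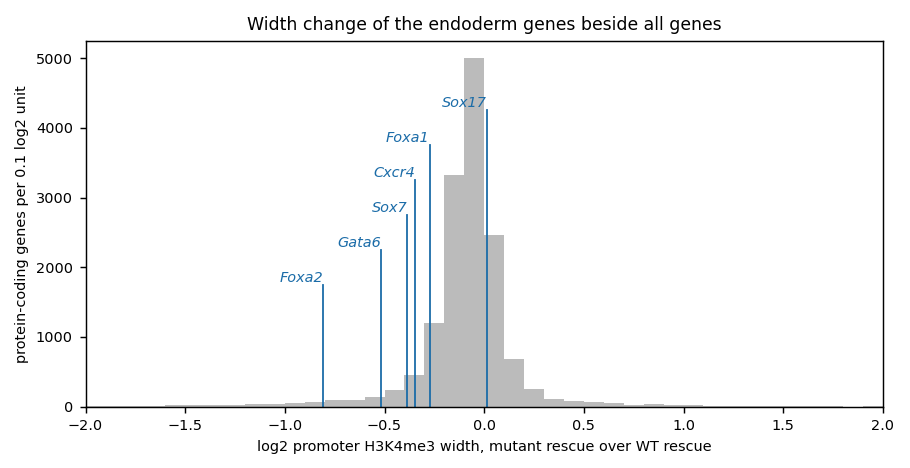
Distribution over 14727 protein-coding genes of the log2 ratio of mutant rescue to WT rescue promoter width (x axis; y axis, genes per 0.1 log2 unit), with vertical lines of arbitrary height at the 6 members. Sox17 at 0.01 lies in the bulk, and Foxa1 at −0.27 to Foxa2 at −0.81 lie in its lower tail. Widths are unjoined; with gaps of at most 500 bp joined (not drawn), Foxa2 was at −0.06 and Cxcr4 at 0.02.

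Markers of fibroblasts, which would come from feeder or differentiated cells, were read beside this result. Of 12 such genes, 8 had a promoter H3K4me3 region in the WT line (753 to 1951 bp) and 6 in the mutant line (558 to 1705 bp). The shares over all protein-coding genes were 68.8% and 68%. The median log2 ratio over the 6 with both was −0.34. Twist2, a mesenchymal factor gene (1951 and 1705 bp), was the widest. Col1a2 (1354 and 860 bp) and Prrx1 (1920 and 1152 bp) were narrower by over 1.5-fold, as were 3.54% of all genes. The collagen gene Col1a1 (1924 bp) and the smooth muscle actin gene Acta2 (1699 bp) were marked in the WT line only. Of the same 12 genes, Col3a1, Postn, Dcn and Lum had no promoter region in either line. Thy1, a surface protein gene, had WDR5 in the mutant line. By unjoined widths the fibroblast median thus lay near that of the endoderm members, −0.37. With gaps of at most 500 bp joined the endoderm median was −0.17, and no joined value was computed for the fibroblast genes. A part of fibroblasts in the narrower endoderm regions was not tested.

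Regions were also compared over the whole windows of 20 kb, which include the promoter regions already described. Of the 25 WT line regions, 21 were overlapped by a mutant line region (84.0%, exact 95% interval 63.9 to 95.5%), beside 81.5% of the 53208 regions near any protein-coding gene. In the other direction it was 23 of 29 (79.3%, 60.3 to 92.0%) beside 80.3%, so the share in common was near the background. Of the 21 overlapping pairs the mutant line region was narrower in 16, and the median ratio of widths was 0.787. Over 43391 such pairs near protein-coding genes it was narrower in 57.6%, and the median ratio was 0.970. Without the promoter regions of the members it was narrower in 11 of 15 pairs, with a median ratio of 0.857. Without those of any protein-coding gene it was narrower in 10 of 13, with a median of 0.857, beside 50.3% of 28542 pairs and a median of 0.998. These subsets were chosen after seeing the data. No gaps were joined here, and the ratio of 0.787 is that of the Cxcr4 region, split in the mutant line. Joined widths were 2817 and 2855 bp at Cxcr4 and 2738 and 2625 bp at Foxa2. Pairs of the same gene are not independent. Away from the promoter region, the Foxa2 ratios were 0.671, 0.591, 0.505 and 0.630. Those of Gata4 were 1.14, 1.02, 0.934, 1.03 and 0.264. The summits of 16 of the 21 pairs lay within 200 bp of each other.

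The 5 kb on each side of the start gave a measure that counts all listed regions and not the widest alone. H3K4me3 covered 3330 bp at Foxa2, 3228 bp at Gata6, 2817 bp at Cxcr4, 2376 bp at Foxa1, 2243 bp at Sox17 and 1685 bp at Sox7 in the WT line. In the mutant line it covered 2625, 2634, 2653, 1990, 2265 and 1290 bp in the same order of genes. Foxa2 and Gata6 lay above 98.7% and 98.3% of all genes in the WT line and above 96.2% and 96.3% in the mutant line. Coverage was thus lower in the mutant line at 5 of the 6 and nearly equal at Sox17, taken there at its lower end. It was lower at 76.1% of the 14727 genes with a promoter region in both lines. Gata4 had 1562 bp at its upper end in the WT line and at most 424 bp in the mutant line, at its lower end, on the Neil2 side. Hnf4a had 0 and 449 bp, and Afp 0 in both. By the likeness of covered bins of 100 bp within 5 kb in both H3K4me3 lists (Jaccard index, 2 libraries, among 17492 genes with an annotated start), the gene most like Cxcr4 was Hmx3 (0.966). It was Bcan for Foxa1 (0.837) and Fscn1 for Foxa2 (0.716).

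WDR5 regions at the members were counted beside all genes. In the WT line 2 of 9 promoters had one, Foxa1 and Cxcr4, beside 16.5% of all protein-coding genes and 23.7% of those with a promoter H3K4me3 region. In the mutant line 0 of 9 had one, beside 9.65% and 13%, and so none had one in both lines, beside 4.34%. Within 20 kb of the gene, 3 members had a WDR5 region in the WT line (Foxa1, Cxcr4 and Hnf4a), beside 43% of all genes, and 7 in the mutant line (those 3 and Gata4, Gata6, Sox7 and Afp), beside 53.2%. Of the 6 WT line regions 4 lay on an H3K4me3 region of the same line (66.7%, 22.3 to 95.7%), beside 53.3% of WDR5 regions near any protein-coding gene. Of the 9 mutant line regions 1 did (11.1%, 0.281 to 48.2%), beside 17.2%. Both background shares lay within these wide intervals, which treat regions of the same gene as independent. Of all 15 regions, only the strongest Foxa1 region of the WT line had a −log10 q of at least 2. Near any protein-coding gene, 10.4% of the WDR5 regions of the WT line and 5.78% of those of the mutant line reached it. At that threshold no promoter of the 9 had WDR5 in either line, and with WDR5 lists of equal length 1 member was left within 20 kb in the mutant line.

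Other genes of endoderm formation were described from lists for comparison. Over all genes with a promoter region in both lines, 3.54% were narrower and 1.49% wider in the mutant line by over 1.5-fold. Of 19 genes of Nodal signalling and mesendoderm, 18 had a promoter H3K4me3 region in each line, and Cer1, a Nodal antagonist, in neither. The widest were Tdgf1, the Nodal co-receptor gene (3099 and 2408 bp in the WT and the mutant line), and Gdf3, a ligand gene (2808 and 2847 bp). The receptor genes Acvr2a and Acvr2b, the signal transducer gene Smad3, its partner gene Foxh1 and the inhibitor gene Lefty1 had WDR5 at the promoter in the WT line, and no gene of the list in the mutant line. The median log2 width ratio was −0.01, and Lefty2 alone passed 1.5-fold, at 1559 and 2442 bp. Many of these genes act upstream of the 9, and some are expressed in naive cells.

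Of 16 primitive and extraembryonic endoderm genes, 15 had a promoter region in each line, Cubn, a yolk sac receptor gene, in neither, and the median log2 ratio was −0.15. Fgf4, a growth factor gene, had a wide region in both lines (2951 and 2905 bp). Amn, the partner gene of Cubn (981 and 271 bp), was narrower by over 1.5-fold in the mutant line. The laminin genes Lama1 and Lamb1 had WDR5 in the WT line. All 12 later gut regulators had a promoter region in both lines, led by Klf5 (2678 and 1953 bp) and Onecut1, a liver and pancreas factor gene (2493 and 1415 bp), with a median log2 ratio of −0.05. Onecut1 and Nkx2-1, a lung and thyroid factor gene (1125 and 492 bp), were narrower by over 1.5-fold. Isl1 and Hes1 had WDR5 in the WT line, and Cdx2, an intestinal and trophectoderm factor gene, in the mutant line.

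Of 13 liver and yolk sac secreted protein genes, a class like Afp, 4 had a promoter region in each line and none had WDR5 at the promoter. Apoa2 (1569 and 1594 bp) and Trf, the transferrin gene (1406 and 1129 bp), were the widest. Apob was marked in the WT line alone (1183 bp) and Ttr in the mutant line alone (635 bp), and Alb, the neighbour of Afp, in neither. Of 10 paralogues of the members, 9 and 8 had a promoter region and none WDR5. Gata3 (2724 and 2656 bp) and Foxa3 (2155 and 2076 bp) were the widest, Gata1 had 298 bp in the WT line alone, and Cxcr5 had none. Klf5 and Fgf4 are also naive pluripotency genes here, and Foxa3 and Hnf4g count in 2 lists.

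**Figure D5:**
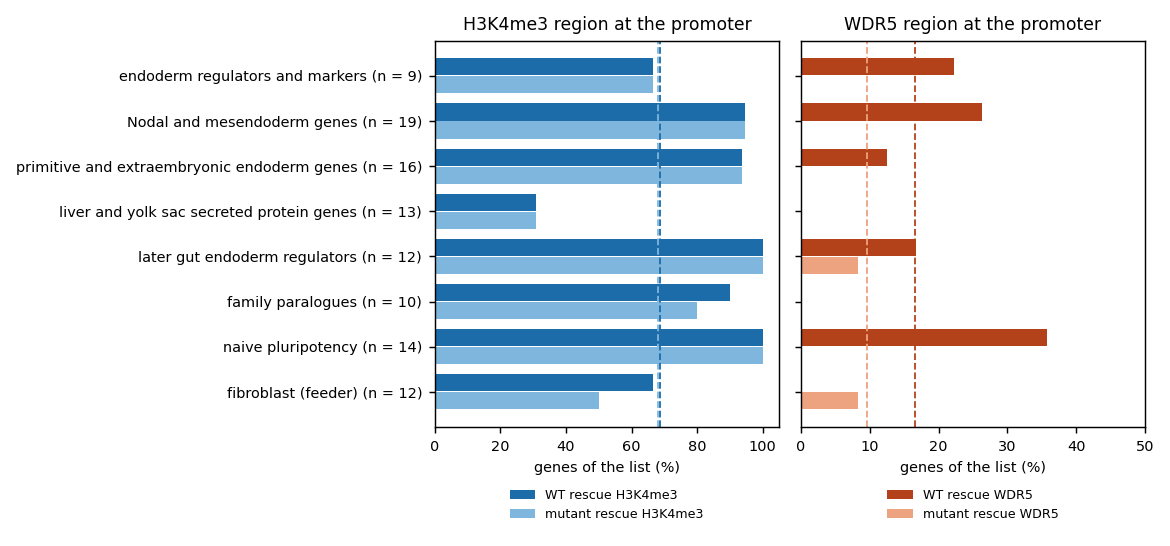
Share of the genes of each list (%) with an H3K4me3 region (left) or a WDR5 region (right) at the promoter, dark bars for the WT rescue and light bars for the mutant rescue, 1 library each, and dashed lines for all protein-coding genes (68.8 and 68% for H3K4me3, 16.5 and 9.65% for WDR5). The liver and yolk sac list is the lowest for H3K4me3, at 30.8% in both lines.

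Markers of the labelled cells were read in the same lists. All 14 naive pluripotency genes had a promoter H3K4me3 region in both lines, led by the reprogramming factor genes Klf4 (3663 and 3378 bp) and Pou5f1 (3655 and 2890 bp), with a median log2 ratio of −0.03. WDR5 was at the promoters of Nanog, Sox2, Klf2, Klf4 and Tfcp2l1 in the WT line and of 0 in the mutant line.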

How the data were processed

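ChIP-seq regions of 4 libraries were used; input DNA was not used here. The submitters' processing notes name MACS2 2.1.2, Picard, SAMtools, BWA 0.7.17-r1188 and the build mm10; settings and controls are not given in the sources used here. The deposited lists give for each region a fold enrichment (a ratio), p and q values as −log10, a summit and a score (not used), all as the authors made them; no pooling is recorded. The smallest deposited −log10 p was 2.00. Read depth is unknown, and widths and counts depend on it.

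Genes and starts came from RefSeq tables on GRCm38.p6; 17492 of 21887 protein-coding genes had an annotated start, and both gene ends served for the others. Promoter width is that of the widest region overlapping the window by at least 1 bp. A width ratio past 1.5-fold was called. Shares have exact (Clopper-Pearson) 95% intervals, which cover counting error only and treat regions of the same gene as independent. The code was checked on planted regions: 200 of 200 widths were recovered for the width comparison over 21887 genes. All genes of the lists were matched, Tf by its synonym Trf.

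The members and lists were chosen with earlier results of these data known. Genes named are all members, their neighbours with a region, and from each list the 2 widest in the WT line, those marked in a single line and those with WDR5 at the promoter; list members beyond this (unmarked genes and those past 1.5-fold) were named after their values were seen. One gene that this rule would name is not reported here. Python 3.11.15, numpy 2.4.6, pandas 2.3.3, scipy 1.17.1 and matplotlib 3.10.9 were used.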

Additional observations from a re-analysis of the deposited data

How the results depend on the processing

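Of 90 values recomputed under alternatives, 78 stayed within 1.5-fold of those reported. For the median log2 width ratio this was judged on the ratio itself and not on its log2 value. Members with WDR5 at the promoter in the WT line went from 2 to 0 at a −log10 q of at least 2 or a −log10 p of at least 5, and to 1 with either gene end in place of the start. In the mutant line they went from 0 to 5 with the whole gene body extended by 1 kb, an alternative chosen after seeing the data. Members with WDR5 within 20 kb fell from 3 to 1 (WT line) and from 7 to 0 (mutant line) at either threshold, and the mutant line count was 1 with lists of equal length. The 25 H3K4me3 regions of the WT line became 42 within 50 kb. Members whose width differed by over 1.5-fold went from 1 to 0 with gaps joined, which reunites the split Foxa2 and Cxcr4 regions. The median covered length in the mutant line was 1990 bp within 5 kb and 1290 bp within 2 kb. With a 2.5 kb promoter window the log2 width ratio of Gata6 was −0.06 in place of −0.52. The median log2 width ratio of the members stayed between −0.39 and −0.17. Leaving out a library was not run, since each group has 1. No paired analysis was possible because each group has a single library. WDR5 regions near the threshold and all widths are limited by a depth that the lists do not give.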
